A study of Mus musculus with 5 samples.

Results

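The data described here are the 14354 Myc peaks of 1 chromatin immunoprecipitation and sequencing (ChIP-seq) sample of mouse fibroblasts in which the MycER protein had been activated. They are all peaks of the list of that sample, taken without a filter, among 122868 peaks in 4 lists that also cover RNA polymerase II (RNAPol2, 49650 peaks), TEAD (48571) and YAP (10293). The cells were 3T9MycER;YAP cells, given under the parental name 3T9MycER in the labels, immortalized embryonic fibroblasts that express MycER, in which Myc is joined to the hormone-binding part of the oestrogen receptor and stays inactive until OHT is added. The series describes them as quiescent and confluent. MycER was activated with 400 nM OHT (4-hydroxytamoxifen), and the YAP mutant that the cells also carry was induced with 2 µg/ml doxycycline. Both agents were given in all 4 ChIP samples, so no list shows Myc without OHT, and the part of the binding that depends on OHT or on the YAP mutant was not measured. Chromatin was precipitated with the antibody MycN262, which as background recognises the N-terminal part of Myc, so that MycER and the Myc of the cells themselves cannot be told apart. There was 1 sample per antibody and hence no replicate error. No p-value is given, and differences between lists were not tested.

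Myc is a transcription factor of the basic helix-loop-helix leucine zipper class that binds DNA as a dimer with Max, preferably at E-box motifs. At high levels it is known to occupy the active promoters of a cell broadly, together with RNA polymerase II, and to act on genes of growth, metabolism and the cell cycle. TEAD proteins are the DNA-binding partners of YAP, the coactivator that the Hippo kinases restrain, and are known to act largely at enhancers. RNAPol2 peaks serve below as the mark of transcribed or poised sites, since the peaks are in the mm9 build and were not assigned to genes here.

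The Myc library held 20441605 tags, the fewest of the ChIP libraries, which ranged up to 38345189. All 4 lists were made against one control library of 60189064 tags, so a region with a raised control level is shared by all of them. The length to which tags were extended was 288 bp for Myc and between 185 and 233 bp for the other lists. It is also the smallest width a peak can have, so widths and distances at that scale are not strictly comparable between lists.

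Most Myc peaks were low and narrow, and a small upper part of the list was far higher. The pileup, the number of overlapping fragments at the summit, ran from 14 to 488 with a median of 34 (95% interval 33 to 34). The middle 50% of peaks lay between 25 and 53. A pileup of 20 or less was found at 10.3% of peaks and of 100 or more at 7.72%. Fold enrichment, the ratio of the pileup to the local control level, ran from 1.77 to 128.01 with a median of 9.21 (9.18 to 9.32). It reached 20 or more at 2106 peaks, or 14.7% (14.1 to 15.3), and stayed under 5 at 732. The list therefore has a long upper tail, with 1% of peaks above a pileup of 196 and a fold of 53.4.

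Width ran from 288 to 6493 bp, with a median of 605 bp (598 to 614) and quartiles of 419 and 896 bp. At 347 peaks, or 2.42%, the width was exactly the extension length of 288 bp. Only 139 peaks, or 0.968%, were wider than 2000 bp. Wide peaks were also high: in classes of 25% of the list by width, median widths of 342, 506, 736 and 1147 bp went with median pileups of 23, 30, 42 and 63. Across the 14354 peaks the rank correlation of width and pileup was 0.739, which is a description, since both come from the same tags. Summits lay near the centre, at a median of 49.2% of the width, and 81.4% of them fell in the middle 40%.

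**Figure D1:**
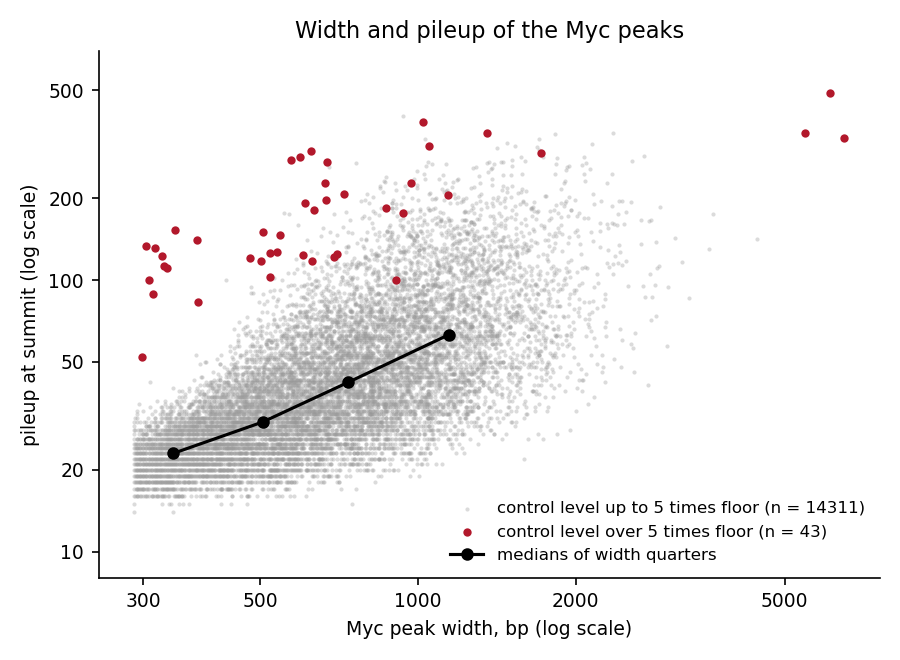
Width (horizontal axis, bp, log scale) and pileup at the summit (vertical axis, fragments, log scale) of the 14354 Myc peaks, 1 point for each combination of values. Black points are the medians of 4 classes of equal size by width, which climb from 342 bp and 23 to 1147 bp and 63, and red points are the 43 peaks with a control level over 5 times the lowest of the list, which lie mostly along or above the upper edge of the grey points.

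The weakest members lay just inside the p-value cutoff of 1e-05, which is a −log10 p of 5. The lowest values were 5.16 at chr4:148178212-148178608, 5.17 at chr15:44615776-44616089 and 5.38 at chr9:9093079-9093366, which lay 141391, 43777 and 49569 bp from the nearest RNAPol2 summit. Next were 5.53 at chr3:60332103-60332435 and 5.56 at chr7:105932445-105932791, which lay 250 and 245 bp from one, inside RNAPol2 peaks. These regions were chosen after their values were seen, as the nearest to the cutoff, and 16 peaks in all lay under 6. The median was 21.3, and 10875 peaks, or 75.8%, had a −log10 q of at least 10. The narrowest peak of lowest pileup was chr15:78637351-78637638, with a pileup of 14 and a fold of 4.45. The other 4 chosen in this way, chr1:77856540-77856827, chr1:170360047-170360334, chr5:115108021-115108308 and chr5:137972979-137973266, had a pileup of 15 and a fold of 4.76. Each of these 5 narrow peaks of low pileup had an RNAPol2 summit 128 to 270 bp away.

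The highest pileups were of 2 kinds, which the control level separated. The control level was within 2 times its floor, the lowest level of the list, at all but 318 peaks (2.22%), and over 5 times the floor at 43 (0.300%). The highest pileup, 488 at chr17:39979796-39985894, stood on a control level of 49.4 times the floor and had a fold of only 3.14. The peaks chr2:98502254-98503274 and chr2:98506213-98507564, with pileups of 382 and 348, had folds of 2.76 and 3.51. By contrast, chr11:59859454-59860388 had a pileup of 403 on a control level of 1.00 times the floor, and thereby the highest fold of the list, 128.01. The fifth, chr13:69749889-69752237, had a pileup of 348 and a fold of 73.19.

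The 43 peaks on the highest control levels had pileups of 52 to 488 and folds of 1.77 to 12.38, and 18 of them lay on chromosome 9. Of these 43 peaks, 15 overlapped an RNAPol2 peak, 22 a TEAD peak and 16 a YAP peak. Their shares were 51.2% for TEAD (36.8 to 65.4) and 37.2% for YAP (24.4 to 52.1), against 69.4% and 21.0% of all Myc peaks, and 88.2% of all Myc peaks overlapped RNAPol2. Leaving out all 318 peaks with a control level over 2 times the floor moved none of 10 values by more than its interval, or 1.5 times for a count. These were the medians of pileup, width, spacing and distance to RNAPol2, that distance in the lowest and highest 25% by fold, the shares within 10 kb of another Myc summit, within 500 bp of RNAPol2 and inside an RNAPol2 peak, and the number of dense windows. It was not run for the other results. Width had the same property at its upper end. The widest peaks, chrM:1-6493 and chrM:10909-16379 on the mitochondrial sequence and chr17:39979796-39985894, had folds of 3.36, 3.35 and 3.14. The next, chr17:34255729-34260159 and chr11:70466971-70470613, were 4431 and 3643 bp wide with folds of 41.81 and 50.12, and lay inside RNAPol2 peaks of 15064 and 12309 bp.

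After chr11:59859454-59860388, the highest folds were 105.46 at chr5:142843067-142844096, 100.69 at chr11:6427306-6429450, 96.94 at chr5:134659083-134660616 and 93.97 at chr15:99802793-99804209. All 5 lay inside RNAPol2 peaks, with offsets of 81, 349, −142, −107 and 175 bp between the Myc summit and the nearest RNAPol2 summit. An offset is the Myc position minus the RNAPol2 position along the chromosome, whatever the strand of a gene. The nearest RNAPol2 peaks had folds between 13.19 and 53.54. All 5 Myc peaks overlapped a TEAD peak and none a YAP peak, beside shares of 82.9% and 18.9% in the highest decile of Myc fold.

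Myc summits were spaced in 2 ranges, a close one around 1 kb and a wide one centred between 20 and 50 kb. The median distance from a Myc summit to the nearest other Myc summit was 17059 bp (16363 to 17613, n = 14352), and the distances ran from 254 to 7192878 bp. Another Myc summit was found within 1 kb of 13.2% of summits (12.7 to 13.8), within 10 kb of 39.99% (39.2 to 40.8) and within 100 kb of 87.7% (87.1 to 88.2). On a log scale the distances had 2 maxima. Per log10 unit of distance there were 5810 summits between 500 and 1000 bp and 6020 between 1000 and 1500 bp, then 2425 between 2000 and 3000 bp, and again 7974 between 20 and 50 kb. The smallest distance was that between chr9:51202106-51202404 and chr9:51202458-51202917, chosen after its value was seen.

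Close neighbours were more frequent in the Myc list than in RNAPol2 and TEAD lists cut to the same number of peaks, and less frequent than in the YAP list. With the 14354 peaks of highest fold from each list, another summit lay within 1 kb of 13.2% of Myc summits, 6.43% of RNAPol2 summits (6.04 to 6.84) and 2.28% of TEAD summits (2.05 to 2.54). With 10293 peaks in each list the shares were 7.51% for Myc, 3.64% for RNAPol2, 1.30% for TEAD and 10.0% for YAP. In the full lists, 36.0% of RNAPol2 and 17.0% of TEAD summits had such a neighbour. The order of the lists thus depended on how many peaks were kept, and cutting by height removes weak neighbours of strong peaks.

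**Figure D2:**
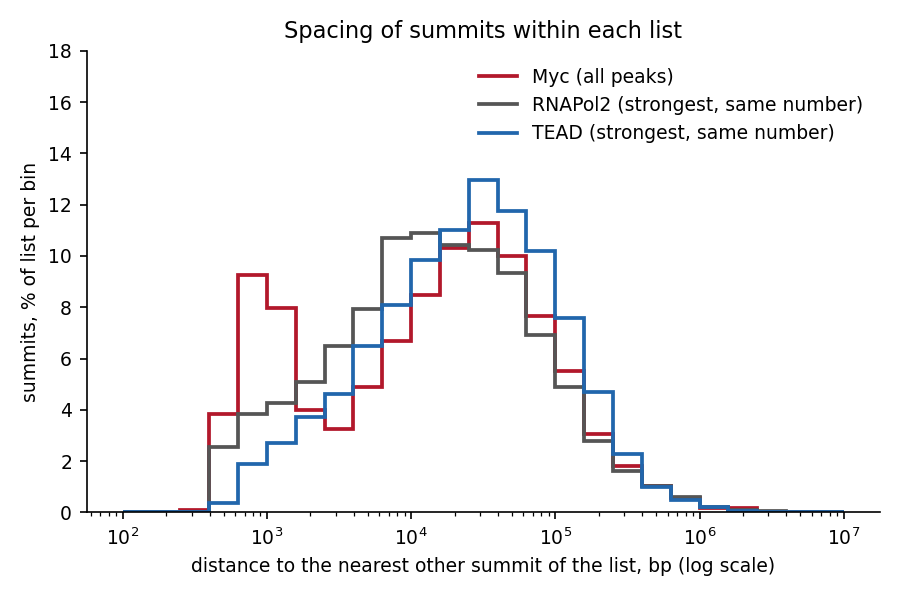
Distance from each summit to the nearest other summit of the same list (horizontal axis, bp, log scale) and the percentage of the list in each bin (vertical axis), for all 14354 Myc peaks and the same number of RNAPol2 and TEAD peaks of highest fold enrichment. The Myc line has a maximum near 1 kb that falls off by 3 kb and a broader one at 20 to 50 kb, while the RNAPol2 and TEAD lines show no separate maximum near 1 kb.

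Just over 50% of the close pairs of Myc summits stood on either side of a single RNAPol2 summit. There were 1772 pairs of consecutive Myc summits up to 2 kb apart, with a median gap of 947.5 bp. Exactly 1 RNAPol2 summit lay between them in 949 pairs, or 53.6% (51.2 to 55.9), none in 35.2% and more than 1 in 11.2%. Both summits lay in one and the same RNAPol2 peak in 946 pairs, or 53.4% (51.1 to 55.7). For consecutive summits 10 to 50 kb apart (4440 pairs), 25.6% had exactly 1 RNAPol2 summit between them and 59.6% had more. Of the 73 pairs up to 500 bp apart, 38.4% (28.1 to 49.8) had exactly 1 and 61.6% (50.2 to 71.9) had none.

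The members of a close pair were no more unequal in height than summits farther apart. The median fold of the higher one was 11.2 (10.98 to 11.5) and of the lower one 6.67 (6.62 to 6.72), and the median ratio within a pair was 1.54 (1.5 to 1.58), which by construction is at least 1. It was 1.65 (1.57 to 1.77) at gaps of 2 to 5 kb and 1.67 (1.63 to 1.698) at 10 to 50 kb. The rank correlation of the heights was 0.0302 over the 1772 close pairs and 0.0809 over the 4440 pairs 10 to 50 kb apart. Summits with a neighbour within 2 kb had a median fold of 8.26 (n = 3341), against 9.53 with the nearest at 2 to 10 kb (n = 2398), 9.80 at 10 to 50 kb (n = 5114) and 8.89 beyond 200 kb (n = 733). Summits with a neighbour within 2 kb also lay farther from the nearest RNAPol2 summit, at a median of 232 bp (214 to 254). The medians were 137 bp at 2 to 10 kb, 123 bp (118 to 128) at 10 to 50 kb, 133 bp at 50 to 200 kb and 173 bp beyond. The 2 summits of a close pair cannot both lie at the same RNAPol2 summit, so this distance is not independent of the spacing. TEAD peaks overlapped 58.3% (56.6 to 59.9) of the closely spaced Myc peaks and 75.9% (74.1 to 77.6) of those at 2 to 10 kb, the highest share. At 10 to 50, 50 to 200 and over 200 kb TEAD overlapped 73.0, 70.6 and 69.0%. For YAP the shares were 16.5% in the closest class and 26.8% at 2 to 10 kb, then 21.5, 20.5 and 21.1%. Median widths were 539 bp up to 2 kb and 640 bp at 2 to 10 kb, and the part of width in the shares was not tested.

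When summits at gaps of up to 10 kb were joined, the list formed 11070 groups. Single summits made up 8615 of them and 60.02% of the list, pairs 1910 and triplets 378. Groups of 6 or more numbered 29 and held 203 summits. The largest, with 13 summits at chr9:3016059-3038452, had folds of 1.96 to 4.09 on a median control level of 15.8 times the floor, and none of its summits lay in an RNAPol2 peak. Its 13 peaks are among the 18 of chromosome 9 with high control levels given above.

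In each of the next 4 groups, 7 or more summits lay in RNAPol2 peaks. At chr10:79604087-79636030, 9 summits spread over 31495 bp, all in RNAPol2 peaks. From the lowest coordinate on, their folds were 4.79, 6.01, 6.88, 14.95, 17.86, 25.44, 4.23, 10.94 and 41.85, so that strong and weak peaks lay side by side. At chr19:9040574-9072475, also with 9 summits in RNAPol2 peaks, 1 summit had a fold of 28.52 and the others 4.49 to 8.47. The 8 summits of chr11:98634083-98658831 held 4 folds above 26, namely 27.05, 49.84, 47.71 and 26.5, and 7 of them lay within 500 bp of an RNAPol2 summit. The group at chr11:120091703-120102000 was the tightest of the 5, with 8 summits in 9258 bp and folds of 4.82 to 27. It held 5 RNAPol2 summits and no YAP summit. Each of these groups had 1 or a few dominant peaks beside several that were close to the weak end of the list.

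Myc summits were concentrated in a small part of the genome. Of 2647 windows of 1 Mb, 763 (28.8%) held no Myc summit and 368 (13.9%) held 50% of all summits. The median was 3 summits per window and the highest count 61. Windows with 20 or more summits, called dense here, numbered 135, or 5.10% of windows, and held 3649 summits, or 25.5% of those on chromosomes 1 to 19 and X. The same windows held 23.7% of RNAPol2 peaks, 16.8% of YAP peaks and 14.2% of TEAD peaks. Myc thus followed the density of RNAPol2 most nearly. There were 31.1 Myc summits per 100 RNAPol2 peaks in dense windows and 28.2 elsewhere, whereas there were 52.9 per 100 TEAD peaks in dense windows and 25.7 elsewhere. Dense windows were chosen by their Myc counts, which by itself tends to raise such ratios in them. Over the windows, which share libraries and gene content and in which the 4 lists differ in length, the rank correlation of Myc counts was 0.924 with RNAPol2, 0.830 with TEAD and 0.753 with YAP.

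The peaks of dense windows were slightly higher than those of windows with 5 to 19 summits and lay at about the same distance from RNAPol2. The median fold was 9.70 (9.42 to 9.96) in dense windows, 9.21 (9.01 to 9.40) in windows with 10 to 19 summits, 8.89 (8.83 to 9.21) with 5 to 9 and 9.15 (8.89 to 9.53) with 1 to 4. The median distances to the nearest RNAPol2 summit lay between 143 and 147 bp in the 4 classes. The share that lay farther than 10 kb from any RNAPol2 summit was 3.56% (3.01 to 4.21) in dense windows and 12.6% (11.2 to 14.2) in the sparsest ones. Summits in sparse windows were therefore more often apart from RNAPol2, though most had one nearby.

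Dense windows formed 89 stretches on 17 chromosomes, of which 62 were single windows and 14 lay on chromosome 11. The longest 2 spanned 5 Mb. The stretch chr15:75000001-80000000 held 183 Myc summits with 535 RNAPol2, 327 TEAD and 149 YAP peaks, and a median Myc fold of 9.91. The stretch chr19:4000001-9000000 held 163 Myc summits with 491 RNAPol2, 275 TEAD and 74 YAP peaks. Next were chr5:122000001-126000000 with 111 Myc summits, chr17:24000001-28000000 with 107 and chr10:79000001-81000000 with 98. The last was the densest of the 5, at 49 summits per Mb.

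These stretches differed little in Myc per RNAPol2 peak and more in YAP. Myc summits per 100 RNAPol2 peaks lay between 30.7 and 35.3 in the 5 stretches. YAP peaks overlapped 41.5% of the Myc peaks in the chromosome 15 stretch, 25.2% and 26.1% in those of chromosomes 19 and 5, 19.6% in that of chromosome 17 and 16.3% in that of chromosome 10. TEAD peaks overlapped between 64.3% and 83.1% of them. Control levels were raised in the chromosome 15 and 10 stretches, at medians of 1.31 and 1.40 times the floor. Over all Myc peaks of these chromosomes the medians were 1.49 and 1.40. The part of the control level in the counts was not tested. Among single windows, chosen after their values were seen, chr19:5000001-6000000 held 61 Myc summits and chr10:79000001-80000000 held 51. Windows of equal Myc density could differ widely in YAP, since chr7:52000001-53000000 and chr15:79000001-80000000 each held 46 Myc summits, with 6 and 39 YAP peaks.

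A dense field of RNAPol2 peaks did not always hold many Myc summits. Of 54 windows with at least 100 RNAPol2 peaks, a limit set after seeing the data, 40 were Myc-dense, with a median of 30 Myc summits and a range of 3 to 61. At the low end, chr10:22000001-23000000 held 3 Myc summits among 132 RNAPol2 peaks and chr4:58000001-59000000 held 4 among 136. Next were chr2:115000001-116000000 with 8 among 106, chr17:78000001-79000000 with 8 among 107 and chr11:8000001-9000000 with 9 among 170. The median RNAPol2 folds in these windows were 4.48, 5.23, 4.99, 4.37 and 4.71, against 5.57 over the whole RNAPol2 list. They were not compared with the folds in the rest of the 54 windows.

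**Figure D3:**
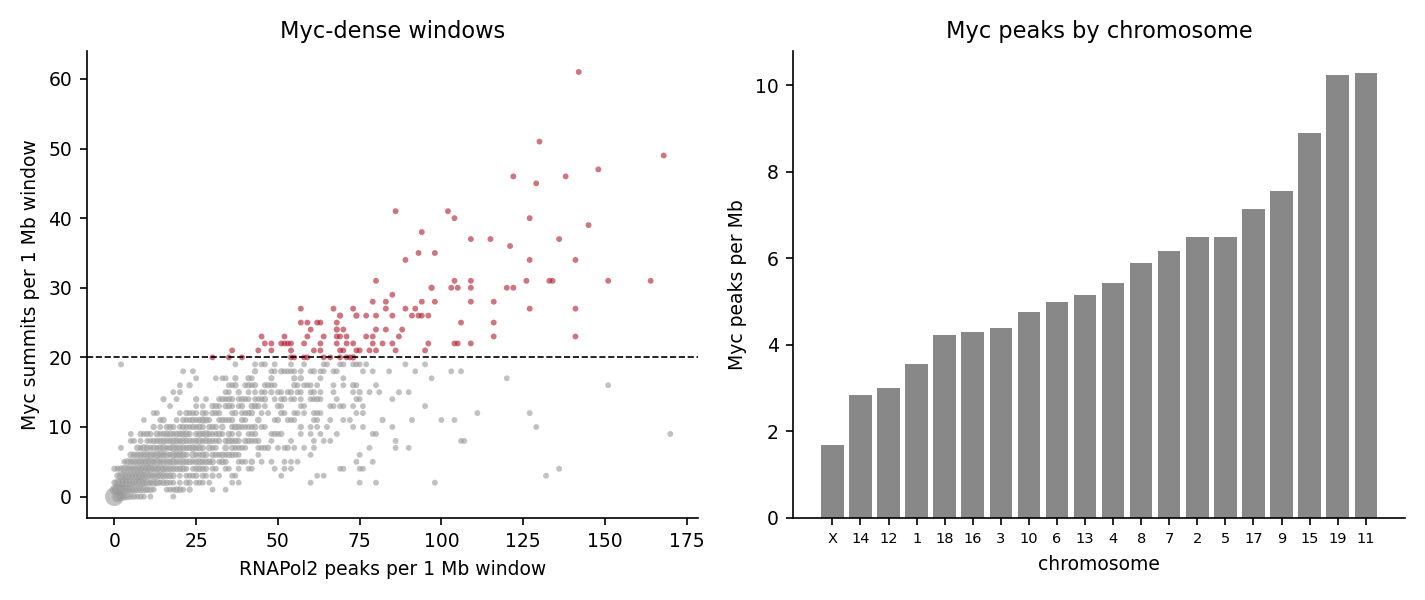
Left, RNAPol2 peaks (horizontal axis) and Myc summits (vertical axis) per 1 Mb window, with larger points where several windows share the same values, a dashed line at 20 Myc summits and dense windows in red. Right, Myc peaks per Mb on each chromosome up to its last peak, in order of density. Myc counts climb with RNAPol2 counts on the left, with a few windows of over 100 RNAPol2 peaks and under 10 Myc summits, and the bars run from 1.69 on chromosome X to 10.3 on chromosome 11.

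By chromosome the density ran from 1.69 peaks per Mb on chromosome X to 10.3 on chromosome 11 and 10.2 on chromosome 19. Chromosome 15 had 8.89, and chromosomes 14 and 12 had 2.84 and 3.01. Per 100 RNAPol2 peaks the range was narrower, from 24.2 on chromosome 15 to 36.1 on chromosome 12. Median folds lay between 8.25 on chromosome 15 and 10.16 on chromosome 16, and median distances to RNAPol2 between 126 bp on chromosome X and 165 bp on chromosome 6. The low fold of chromosome 15 stood beside the highest median control level, 1.49 times the floor, by which the fold is divided. Outside chromosomes 1 to 19 and X there were 20 Myc peaks.

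The longest stretches without Myc also held little else. They ran from summit 105011449 to 120217293 on chromosome X (15.2 Mb), 20538925 to 33652139 on chromosome X (13.1 Mb), 87815799 to 99444899 on chromosome 14 (11.6 Mb), 54646055 to 65933147 on chromosome X (11.3 Mb) and 54389445 to 64345159 on chromosome 5 (9.96 Mb). Between 3 and 12 RNAPol2 summits and 10 to 19 TEAD summits lay in each of them. Of the 763 windows of 1 Mb without Myc, 106 held an RNAPol2 peak, at most 18, in chrX:48000001-49000000, also chosen after its value was seen.

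Myc summits lay close to RNAPol2 summits and were centred on them. The median distance to the nearest RNAPol2 summit was 146 bp (141 to 150), and 25% of summits lay within 55 bp. The share within 100 bp was 40.1% (39.3 to 40.9), within 500 bp 76.8% (76.1 to 77.5) and within 10 kb 92.3% (91.8 to 92.7). Myc summits fell on both sides alike along the chromosome, with 50.2% (49.4 to 51.1) at a higher coordinate than the RNAPol2 summit. The same share was 49.5% for TEAD and 49.8% for YAP. As the strand of genes was not used, a shift along their direction would not show in it. In 42 cases the Myc and RNAPol2 summits were the same base. The number of Myc summits per bp of distance fell from 69.2 at 0 to 19 bp to 31.0 at 100 to 149 bp, 10.8 at 250 to 299 bp and 3.3 at 500 to 749 bp.

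TEAD and YAP summits had another shape around RNAPol2. The number of Myc summits at 100 to 149 bp was 0.474 times that at 0 to 49 bp (1551 and 3273). For TEAD it was 1.20 times (2307 and 1923) and for YAP 0.977 times (715 and 732). Myc therefore had its maximum at the RNAPol2 summit itself, while TEAD had a shallow minimum there and YAP was about level. The median distance was 9963 bp for TEAD, with 27.7% within 500 bp, and 1656 bp for YAP, with 40.3% within 500 bp. With the 10293 peaks of highest fold in each list, 82.4% of Myc summits (81.6 to 83.1) and 41.0% of TEAD summits (40.04 to 41.9) lay within 500 bp. The YAP sample was fixed with a second crosslinker, which the other samples were not.

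**Figure D4:**
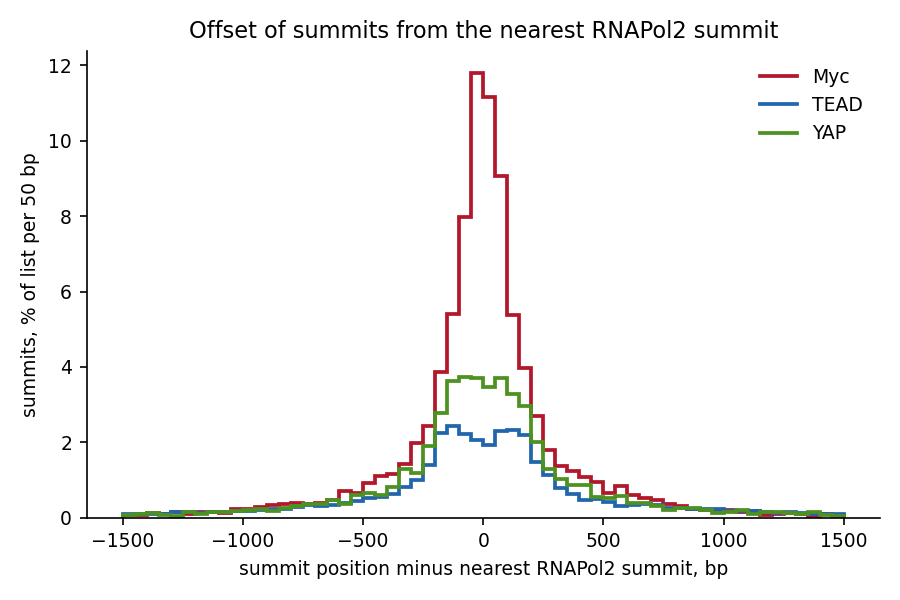
Position of each Myc, TEAD and YAP summit minus that of the nearest RNAPol2 summit (horizontal axis, bp along the chromosome) and the percentage of the list in each bin of 50 bp (vertical axis). The Myc line has one sharp and symmetric maximum at 0, and the TEAD and YAP lines are low and flat-topped, with TEAD lower at 0 than at 100 to 149 bp on either side.

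Myc summits lay inside an RNAPol2 peak in 85.9% of cases (85.3 to 86.5), or 12333 of 14354. Among them, 1588 were more than 500 bp from the nearest RNAPol2 summit, in wide RNAPol2 peaks. Another 284 lay within 500 bp but outside any RNAPol2 peak. The classes of distance differed in Myc height: the median fold was 11.3 within 10 bp of RNAPol2 (n = 767), 9.53 at 101 to 500 bp, 8.58 at 501 to 1000 bp, 7.31 between 1 and 10 kb and 6.46 beyond 10 kb (n = 1107).

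The strongest Myc peaks within 10 bp of an RNAPol2 summit were chr9:86358036-86358836 with a fold of 66.07 and an offset of −8 bp, and chr10:118675969-118678021 with 65.27 and 7 bp. They were followed by chr3:75760191-75761657 with 59.08 and −8 bp, chr17:31648423-31649586 with 57.93 and −9 bp, and chr11:45768474-45769333 with 56.93 and 3 bp. Of these 5, all but the one on chromosome 17 overlapped a TEAD peak and none a YAP peak, beside 71.7% and 20.1% of all Myc peaks within 10 bp of RNAPol2. The folds at the RNAPol2 peaks lay between 18.68 and 36.

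Over all Myc peaks, the median distance to RNAPol2 fell with Myc height, up to a limit. From the lowest to the highest decile of Myc fold, the median distances were 308, 242, 190, 172, 152, 138, 113, 105, 106 and 102 bp. The last 4 have intervals that overlap, of 102 to 127 bp in the seventh decile and 93 to 111 bp in the highest. The share of summits inside an RNAPol2 peak climbed from 65.4% (62.9 to 67.8) to 99.3% (98.7 to 99.6), and that of summits farther than 10 kb from RNAPol2 fell from 18.5% to 0.418%. The median width of the Myc peaks went from 356.5 to 1144 bp in the same order. A weak peak also has a less certain summit, and its part in the distances was not tested. Among the 11029 Myc summits within 500 bp of RNAPol2, the rank correlation of Myc fold and distance was −0.0789.

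TEAD and YAP did not follow Myc height in the same way. TEAD overlapped 68.5% (66.1 to 70.9) of Myc peaks in the lowest decile, 60.8% (58.3 to 63.3) in the third and 82.9% (80.9 to 84.8) in the highest. YAP overlapped 29.5% (27.2 to 31.9) in the lowest and 18.9% (16.9 to 21.0) in the highest. The median width of the Myc peaks was 356.5 bp in the lowest decile and 1144 bp in the highest. In the classes by width used above, TEAD overlapped 57.2% of Myc peaks in the narrowest and 84.1% in the widest, and YAP 20.1% and 23.0%. The lowest decile had a median control level of 1.40 times the floor and the highest 1.03. The part of width and that of the control level in the shares by decile were not tested. Since fold is divided by the control level, a peak on a raised control level falls into a lower decile.

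Seen from the polymerase, a Myc summit was found in nearly all of the strongest RNAPol2 peaks and in few weak ones. Of the 49650 RNAPol2 peaks, 11267, or 22.7% (22.3 to 23.1), held at least 1 Myc summit. By decile of RNAPol2 fold the shares were 2.01, 2.26, 2.42, 2.82, 4.23, 6.73, 13.3, 31.0, 68.4 and 93.9%. The change was thus steep, and most of it fell between the seventh decile (median RNAPol2 fold 6.91) and the highest (29.2). The median width of the RNAPol2 peaks was 322 bp in the lowest decile and 1524 bp in the highest. A wide peak is more easily met by a summit, and the part of width in these shares was not tested. Where Myc and RNAPol2 summits lay within 500 bp, the rank correlation of their folds was 0.534 and of their widths 0.543 (n = 11029), and that of Myc fold and distance was −0.0789. Heights at shared sites were thus related to each other and hardly to the exact distance. Both lists rest on the same control library.

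**Figure D5:**
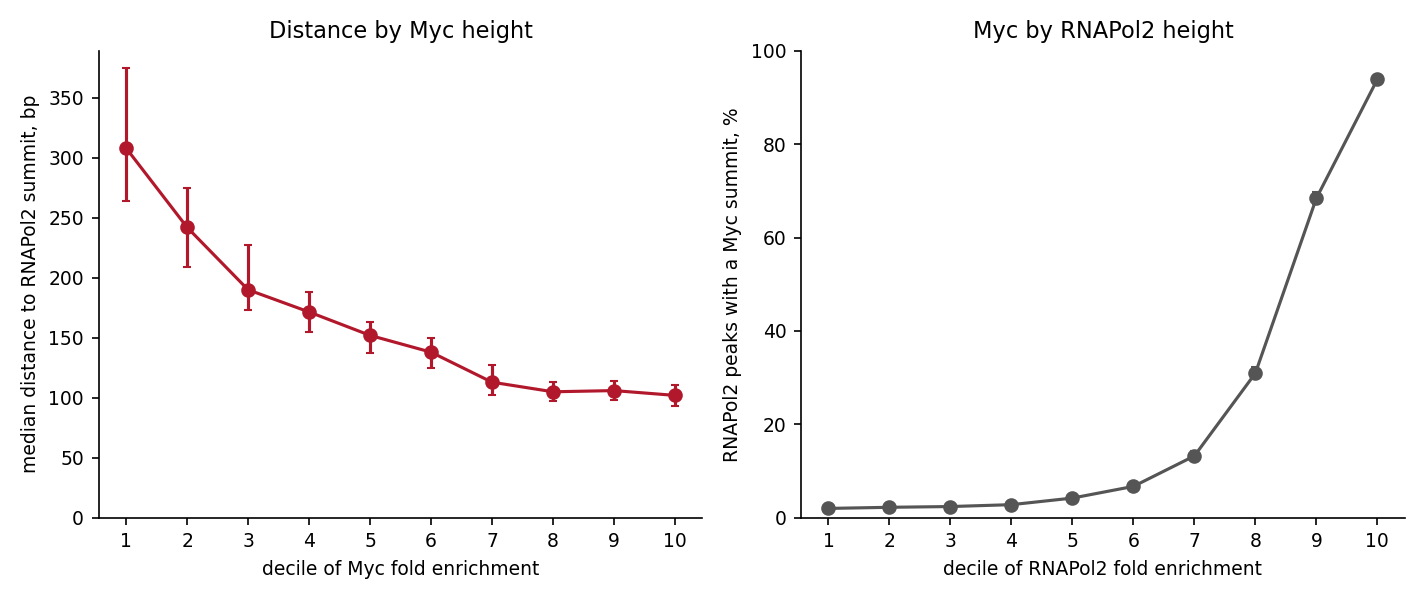
Left, median distance from a Myc summit to the nearest RNAPol2 summit (vertical axis, bp) by decile of Myc fold enrichment, with 95% intervals of the median. Right, percentage of RNAPol2 peaks that held a Myc summit by decile of RNAPol2 fold enrichment, with Wilson 95% intervals. The distance falls from 308 bp to about 105 bp and is level over the last deciles, and the share climbs from 2.01% to 93.9%, with its steepest part in the 3 highest deciles.

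Several Myc summits in 1 RNAPol2 peak were found at 934 RNAPol2 peaks, and a single one at 10333. RNAPol2 peaks with several Myc summits had a median fold of 24.8 and a median width of 2241 bp, those with one 17.5 and 1054 bp, and those with none 5.02 and 438 bp. A wide peak has more room for summits, so that number and width are not independent. The RNAPol2 peak with most Myc summits, chosen after its value was seen, was chr17:80099945-80116298, which was 16354 bp wide with a fold of 53.12 and held 8. The folds of the Myc group it holds ran from 4.84 to 11.36, so many Myc summits did not here mean a high one. At the opposite end, also chosen after the values were seen, the strongest RNAPol2 peaks without a Myc summit were chr11:101518951-101522847, chr8:11557416-11558888 and chr11:87275814-87277696, with folds of 73.97, 69.91 and 68.02.

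Myc peaks far from RNAPol2 were a small and mostly weak class. There were 1107 Myc summits farther than 10 kb from any RNAPol2 summit, or 7.71% (7.29 to 8.16). Their median fold was 6.46 (6.35 to 6.65), their median width 391 bp and their median pileup 25. A fold of 20 or more was found at 10 of them, 0.903% (0.491 to 1.65), against 17.0% (16.3 to 17.7) of the Myc peaks within 500 bp of RNAPol2. TEAD overlapped 64.3% (61.5 to 67.1) of the far and 71.8% (71.0 to 72.7) of the near peaks, and YAP 26.6% (24.0 to 29.2) and 20.9% (20.2 to 21.7). The part of peak width in these shares was not tested. Far peaks stood on a control level over 2 times the floor in 5.51% of cases and near ones in 1.79%. Most of the far peaks thus lay at a TEAD peak, at sites with no RNAPol2 peak, though in a smaller share than the near peaks.

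The strongest far peaks were wider than the median of their class and lacked TEAD and YAP. They were chr16:94962434-94963939 with a fold of 77.19, 17408 bp from RNAPol2, chr8:96382010-96382912 with 58.28 and 17228 bp, and chr14:79704629-79705536 with 56.1 and 18885 bp. Next were chr11:5970685-5972329 with 44.79 and 26496 bp, and chr6:91548581-91549459 with 36.85 and 18317 bp. None of these 5 overlapped a TEAD or a YAP peak, while 64.9% of the far class overlapped at least 1 of them. Their control levels were between 1.00 and 1.24 times the floor, and their widths, 879 to 1645 bp, were those of strong peaks elsewhere in the list.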

How the data were processed

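Myc, RNAPol2, TEAD and YAP ChIP-seq were analysed in 1 sample per antibody, grouped by sample title. Named in the submitters' processing notes are the aligner BWA 0.6.2, SAMtools, the peak caller MACS2 2.0.9 and the mm9 build. The authors, per the file headers, made narrow peak lists for single samples at a p-value cutoff of 1e-05, with no pooling, against a control library of 60189064 tags, with tags of 51 bp and at most 2 tags kept per position. Deposited values were the pileup (a signal of overlapping fragments at the summit), the fold enrichment (a ratio to a local control level), and the −log10 p and −log10 q of each peak. The headers give control windows of 1000 and 10000 bp for that local level, and say that the larger library was scaled to the smaller one. Positions are 1-based mm9 coordinates. The headers do not say whether the control library is the input sample, of which no peak list was used.

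All 14354 peaks of the Myc list were used, without a filter. Dividing pileup by fold enrichment gave the control level at each peak, and the lowest of these levels is named the floor. Distances run from summit to nearest summit on the same sequence. A summit was inside a peak when it lay between its start and end, and peaks overlapped when they shared at least 1 bp. Windows were consecutive 1 Mb blocks of chromosomes 1 to 19 and X up to the last peak of any list, windows with 20 or more Myc summits were taken as dense, and adjoining dense windows as 1 stretch. Groups joined summits at gaps of up to 10 kb. Medians have 95% intervals from binomial order statistics, and shares have Wilson 95% intervals. The intervals take peaks as independent and cover counting error only, and PCR reads that carry no molecular identifiers are not independent molecules. No test was made, since there was 1 sample per antibody.

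The regions named were the 5 highest by pileup, by fold enrichment and by width, the 5 narrowest of lowest pileup, the 5 stretches and the 5 groups with most summits, the 5 longest gaps between neighbouring summits, and the 5 of highest fold enrichment farther than 10 kb from, and within 10 bp of, an RNAPol2 summit. Ties were ordered by chromosome and start. Regions outside this rule are said in the text to be chosen after their values were seen. The members and definitions were chosen with earlier results of these data known. Alternatives were a −log10 q of at least 10, the stronger 50% of a list, peak midpoints, shifted and 500 kb windows, classes of pileup in place of fold enrichment, peaks sharing 50% or more of the shorter one and chromosomes 1 to 19 and X only. Leaving out Myc peaks with a control level over 2 times the floor was added after seeing the data. Scipy 1.17.1, pandas 2.3.3, numpy 2.4.6 and matplotlib 3.10.9 were run in Python 3.11.15. The steps for distances, window counts and intervals of medians were tested on simulated data. Those for summits inside peaks and for overlaps were checked by direct comparison on peaks of the lists. No such check was made of the other steps. The gene and promoter tables at hand follow GRCm38.p6. Because the peaks follow mm9, no gene was assigned to them and no sequence was read.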

Additional observations from a re-analysis of the deposited data

How the results depend on the processing

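Of 40 alternative values, 19 stayed within their interval (counts within 1.5 times) and 21 moved. The values are medians, shares and a count, so they have no direction that could reverse. All 10 without the Myc peaks on a control level over 2 times the floor, added after seeing the data, stayed. No paired analysis was possible because there was 1 sample per antibody, and for the same reason no replicate could be left out. At a −log10 q of at least 10, which kept 10875 Myc peaks, the median pileup was 41, the median width 718 bp, the median distance between neighbouring Myc summits 25731 bp, the share with a neighbour within 10 kb 30.3% and the number of dense windows 66. The median distance to RNAPol2 was then 126 bp, with 81.3% within 500 bp and 90.8% inside an RNAPol2 peak. With the stronger 50% of Myc peaks the spacing was 41303 bp and the share within 10 kb 20.8%. With all Myc peaks, there were 359 windows of 500 kb with 10 or more summits. With RNAPol2 peaks of a −log10 q of at least 10, the distance was 158 bp, with 73.2% within 500 bp, 83.1% inside a peak and 368 bp for the lowest 25% of Myc peaks by fold (258 bp with all RNAPol2 peaks). With the stronger 50% of RNAPol2 peaks the values were 167 bp, 71.2% and 81.2%. Peak midpoints gave 156 bp, RNAPol2 peaks covering 50% or more of the shorter peak gave 87.1%, and the lowest 25% by pileup lay 237 bp from RNAPol2. Fewer peaks widen the spacing by construction. The Myc library was the shallowest of the 4, and the lowest pileup in its list was 14.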
